A study of Mus musculus with 8 samples.

Results

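The genes described here were the segments of the T cell receptor: the variable (V), joining (J) and constant (C) genes of the alpha, beta, gamma and delta loci, taken by name from the deposited expression table. A row counted as a member when its name was that of a segment and it reached 1 TPM (a unit of transcript share within a library, corrected for gene length) in at least 2 of the 8 libraries. This gave 202 members among 45232 rows. They were 108 Trav, 45 Traj, 23 Trbv and 12 Trbj segments, the constant genes Trac, Trbc1 and Trbc2, 7 delta members and 4 gamma members. The table held 259 segment rows, of which 212 were above 0 in at least 1 library. Just inside the threshold, the second-highest value was 1.08 TPM for Traj41 and 1.48 TPM for Trdj1, and just outside it was 0.735 TPM for Trbj1-7 and 0.711 TPM for Trav18.

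RNA came from sorted CD4+ CD25+ T cells, a gate rich in regulatory T cells, from the visceral fat and the spleen of C57BL/6 mice. The mice were wild type (WT) or carried the genotype labelled Id2 CKO (called KO here), and per the labels at least 500 cells were sorted for each sample. The 4 groups were WT adipose, KO adipose, WT spleen and KO spleen, each with 2 libraries numbered 2 and 3. The age of the mice, the Cre driver of the CKO genotype, the part of Id2 removed and whether cells of several mice were pooled are not stated. No label says that a group's libraries came from different animals. In WT adipose, KO adipose and KO spleen the 2 libraries differed in sex-linked RNA (values follow), so they did not come from the same animal, while for WT spleen nothing tells. The p-values given here cover only the spread between these libraries.

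Each developing T cell joins 1 V and 1 J segment of the alpha locus, and a V, a D and a J segment of the beta locus, and the joined exon is spliced to the constant gene. The transcript of a T cell therefore carries the V and J segments it chose, and in bulk RNA the shares of the segments reflect which receptors the cells carry and how much receptor RNA each contains. These 2 contributions, fewer cells of a type and less RNA per cell, cannot be told apart here. Adipose regulatory T cells are known for a receptor repertoire with expanded clones. Invariant natural killer T (iNKT) cells and mucosal-associated invariant T (MAIT) cells use nearly fixed alpha chains, and gamma-delta T cells use the other pair of loci.

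J segments are short: the annotated Traj members were 55 to 66 bases long and the Trbj members 47 to 53, against 328 to 595 for Trav and 335 to 566 for Trbv. The J segments on which the results turn are shown whole, 5′ to 3′, from the mouse GENCODE transcripts (release M21, GRCm38). Capitals mark the codons of the phenylalanine-glycine-X-glycine motif that J segments share, where X is any residue, searched on the sense strand. It was found in 40 of 45 Traj and in 11 of 12 Trbj members.

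Traj57: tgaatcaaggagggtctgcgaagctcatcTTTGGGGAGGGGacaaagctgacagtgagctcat
Traj13: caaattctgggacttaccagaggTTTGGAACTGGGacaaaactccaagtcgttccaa
Traj39: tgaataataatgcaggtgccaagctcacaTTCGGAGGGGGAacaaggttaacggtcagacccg
Traj23: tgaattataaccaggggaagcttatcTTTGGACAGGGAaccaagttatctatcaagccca
Traj18: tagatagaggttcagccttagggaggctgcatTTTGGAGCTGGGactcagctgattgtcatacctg
Trbj2-4: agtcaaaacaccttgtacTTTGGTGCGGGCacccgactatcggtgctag
Trbj2-7: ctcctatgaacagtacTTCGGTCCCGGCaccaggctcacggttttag

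V segments are longer but closely related. The last 60 bases of 3 neighbours of the Trbv13 subfamily, whose shares are compared in the results, are shown next, with the codon of the conserved cysteine in capitals.

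Trbv13-1: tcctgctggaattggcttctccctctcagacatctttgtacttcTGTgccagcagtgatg
Trbv13-2: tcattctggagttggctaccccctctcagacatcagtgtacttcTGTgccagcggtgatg
Trbv13-3: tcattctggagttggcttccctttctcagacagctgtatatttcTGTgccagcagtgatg

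Over their whole length Trbv13-2 and Trbv13-3 were 90.6% identical. Trav7-4 and its copy Trav7d-4 were 99.6% identical, and 30 members formed 15 pairs with the same sequence, mostly Trav segments of the duplicated d and n blocks such as Trav4d-3 and Trav4n-3. No source used here gives how the authors divided reads among such copies, so values of single Trav segments with near copies are uncertain.

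Several libraries stood apart. Foxp3, the regulatory T cell transcription factor, was low in KO adipose 2 (7.40 TPM) and KO spleen 2 (8.27 TPM), against 93.5 to 266.1 TPM in the other 6 libraries. The sum of the 5 listed regulatory T cell markers, Foxp3 among them, was not low there. It was 1703 and 1597 TPM in these 2 libraries and 888.1 to 2160 TPM in the others. Of these markers, Il2ra was 33.8 TPM in KO adipose 2, its lowest value, and 71.8 TPM in KO spleen 2, against 68.7 to 175.2 TPM in the others. Foxp3 and Il2ra thus gave little of the sum in these 2 libraries, and most came from Ctla4, Ikzf2 and Tnfrsf18. The sum does not show whether the cells kept a regulatory state. The summed level of 8 macrophage markers was 10930 TPM in KO adipose 3 and 9.42 to 609.3 TPM elsewhere, and that of 7 fibroblast and mesothelium markers was 3578 TPM in KO adipose 3, 725.8 TPM in KO adipose 2 and at most 4.78 TPM elsewhere. Transcripts of the sex chromosomes differed between libraries of 1 group: Y-linked Ddx3y was 63.2, 37.8 and 27.9 TPM in WT adipose 2, KO adipose 2 and KO spleen 2 and at most 0.0126 TPM in the other 5, in which Xist was 26.2 to 68.8 TPM. Id2, the targeted gene, was 2249 and 3679 TPM in WT adipose, 1499 and 1298 TPM in KO adipose, 274.3 and 345.9 TPM in WT spleen and 72.1 and 264.8 TPM in KO spleen, so each KO library was below both WT libraries of its tissue but none was at 0. The part of these differences in the results that follow was not tested, except where values without a library are given.

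Together the 202 segments accounted for 14860 and 14750 TPM in WT adipose, 23060 and 8038 TPM in KO adipose, 29390 and 19870 TPM in WT spleen and 26760 and 21750 TPM in KO spleen. KO adipose 3, the library with the high macrophage sum, was the lowest. Relative to the summed TPM of the CD3 genes Cd3d, Cd3e, Cd3g and Cd247, whose proteins form the signalling complex around the receptor, the segments stood at a ratio of 3.63 to 4.95 in adipose tissue and 4.20 to 5.29 in spleen. On that scale KO adipose 3, at 4.15, was inside the range of the other adipose libraries.

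Trac, the alpha constant gene, was 2262 and 1611 TPM in WT adipose, 3377 and 863.8 TPM in KO adipose, 2684 and 2247 TPM in WT spleen and 3127 and 2420 TPM in KO spleen, and the tissues overlapped. Trbc2, the constant gene of the second beta cluster, was 3881 and 3566 TPM in WT adipose, 5275 and 1775 TPM in KO adipose, 8630 and 5979 TPM in WT spleen and 8867 and 6020 TPM in KO spleen. All 4 adipose libraries were below all 4 spleen libraries for Trbc2, but the difference did not pass the test. Its log2 fold change between adipose tissue and spleen was -0.95 in WT (SE 0.56, limma adjusted p = 0.497) and -1.26 in KO (SE 0.56, limma adjusted p = 0.398).

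Trbc1, the constant gene of the first beta cluster, was 1823 and 2043 TPM in WT adipose, 3494 and 1247 TPM in KO adipose, 3903 and 2990 TPM in WT spleen and 3738 and 2988 TPM in KO spleen. Trbc1 thus made up 32.0 to 41.3% of beta constant TPM in adipose tissue and 29.7 to 33.3% in spleen, with the highest values, 39.8% and 41.3%, in the KO adipose libraries. A TCR with a Trbj1 segment normally uses Trbc1, and the Trbj1 segments held 15.7 to 37.9% of Trbj TPM in adipose tissue and 24.9 to 37.9% in spleen. The lowest of these was WT adipose 3. Trbc1 and Trbc2 were 82.6% identical over the annotated transcripts, so reads could be divided between them. The sum of both beta constant genes over Trac was 2.52 to 3.50 in the adipose libraries and 3.72 to 4.67 in the spleen libraries, without overlap, a ratio read after the values were seen and not tested.

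**Figure D1:**
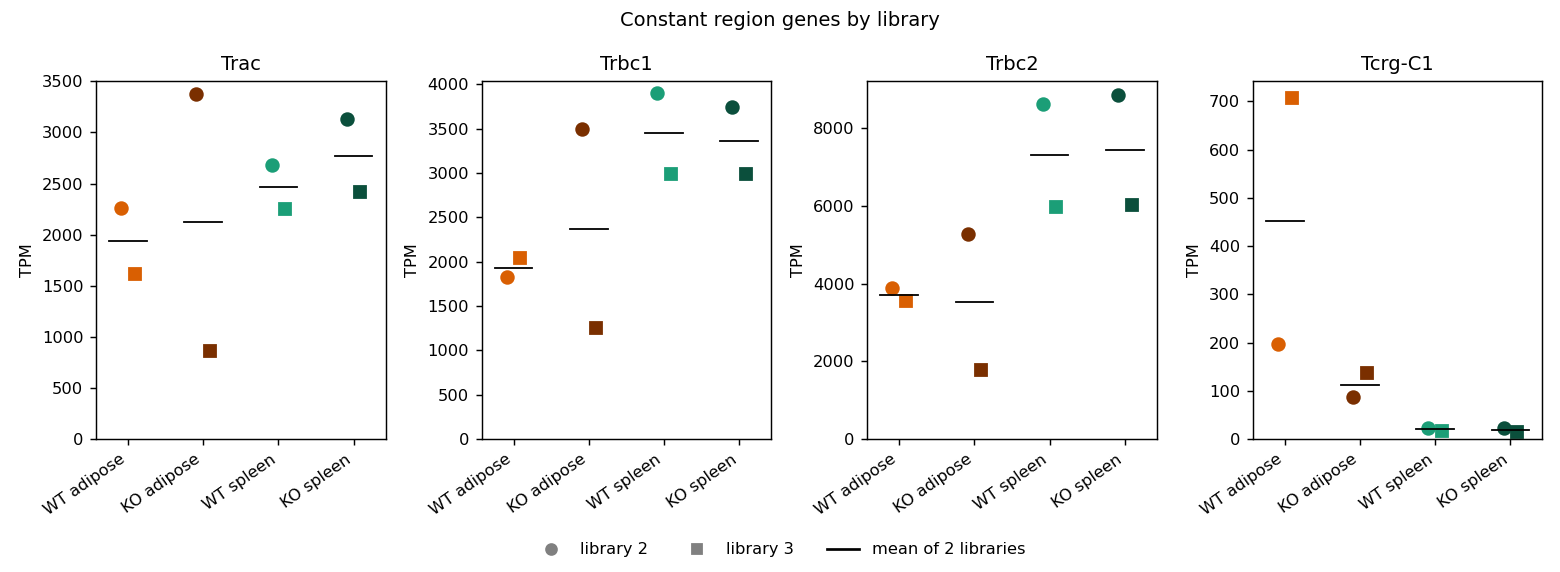
TPM (linear axes from 0) of the alpha and beta constant genes Trac, Trbc1 and Trbc2 and of the gamma constant gene Tcrg-C1 in each group, with a point for each library (circle, library 2; square, library 3) and a bar at the mean of the 2 libraries. Trbc2 was lower in every adipose library than in every spleen library, and Tcrg-C1 was 86.4 TPM or more in adipose tissue and 23.7 TPM or less in spleen.

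In 3 of the 4 adipose libraries the receptor RNA was spread over fewer segments than in every spleen library, in each of the Trav, Traj and Trbv families, but the difference between the tissues did not pass the test. The evenness within a family is given as the effective number of segments, the inverse of the sum of squared shares, which equals the number of segments when all have the same share. For Trav it was 49.9 and 20.2 in WT adipose, 39.7 and 30.2 in KO adipose, 57.4 and 58.7 in WT spleen and 49.8 and 60.9 in KO spleen. For Traj it was 28.5 and 9.24 in WT adipose, 22.6 and 16.9 in KO adipose, 28.3 and 31.8 in WT spleen and 30.2 and 31.5 in KO spleen. For Trbv it was 15.7 and 8.85 in WT adipose, 12.6 and 9.26 in KO adipose, 14.7 and 13.8 in WT spleen and 13.8 and 15.2 in KO spleen. WT adipose 3 was the least even library in all 3 families, while WT adipose 2 was within the spleen range for Trav and Traj and above every spleen library for Trbv.

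The mean effective number of Trav segments was 35 ± 12.7 (SD, n = 4) in adipose tissue and 56.7 ± 4.83 (SD, n = 4) in spleen. The difference of -21.7 had p = 0.0571 in an exact two-sided permutation test over the libraries, in which the smallest p possible is 0.0286, and 0.171 after adjustment over the 6 tests of this kind. For Traj the means were 19.3 ± 8.21 and 30.4 ± 1.60 (SD, n = 4 each), and the difference of -11.1 also had an exact permutation p = 0.0571 (adjusted 0.171). For Trbv they were 11.6 ± 3.20 and 14.3 ± 0.694 (SD, n = 4 each), and the difference of -2.75 had an exact permutation p = 0.171 (adjusted 0.343). None of the 3 differences between tissues therefore passed the threshold of 0.05, with or without adjustment. After adjustment none could: over 6 tests, 3 tests at the smallest possible p would not pass either. No conclusion is drawn from the adjusted outcome. Among the number 3 libraries both adipose values lay below both spleen values in each family, whereas among the number 2 libraries the tissues overlapped for Trav and Trbv and, for Traj, WT adipose 2 was 28.5 against 28.3 in WT spleen 2. The 2 adipose libraries of number 2 were also those with Ddx3y RNA, so number and sex cannot be told apart within adipose tissue.

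No difference in evenness between the genotypes was detected. The mean effective number in KO minus WT libraries was -1.39 for Trav, 0.851 for Traj and -0.525 for Trbv, with exact two-sided permutation p-values of 0.943, 0.829 and 0.714 (adjusted over the 6 tests 0.943 each). These differences were smaller than the spread within either tissue. With Trav segments summed by subfamily number, which merges the near-identical copies, the tissue difference in the effective number was -0.343 (exact permutation p = 0.543), so the Trav contrast between tissues was not seen at the level of subfamilies. For Trbv summed in the same way it was -0.895 (exact permutation p = 0.6).

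**Figure D2:**
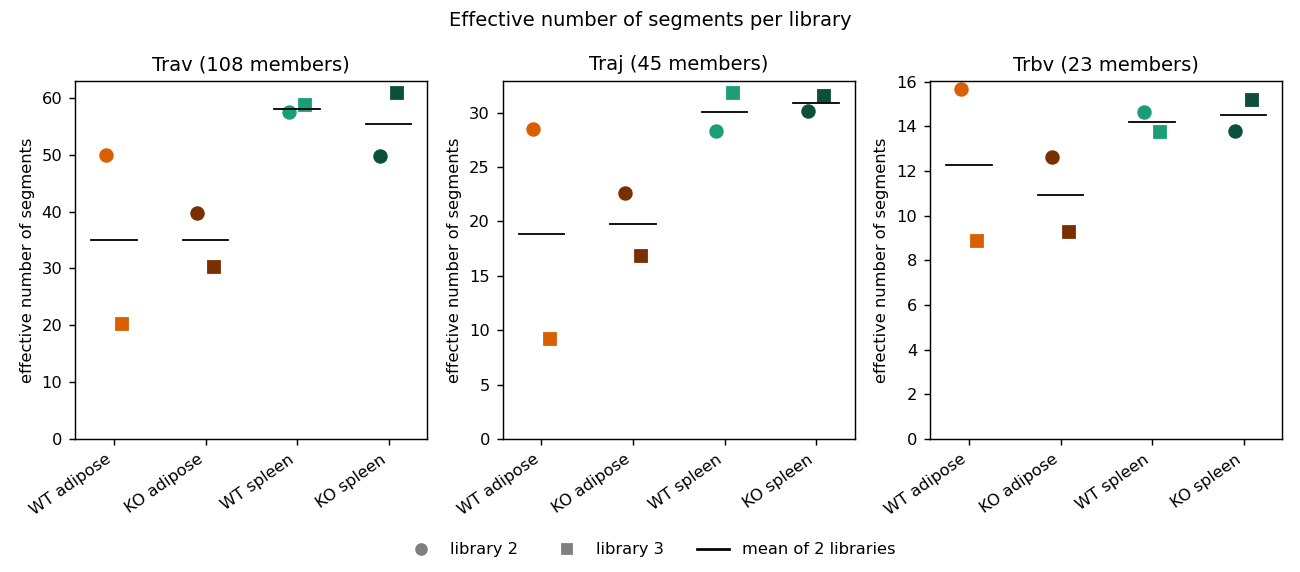
Effective number of Trav, Traj and Trbv segments (inverse sum of squared TPM shares, linear axes from 0) in each group, with a point for each library (circle, library 2; square, library 3) and a bar at the mean of the 2 libraries. The number 3 libraries of adipose tissue were the lowest in each family, and the spleen libraries lay within 49.8 to 60.9 for Trav, 28.3 to 31.8 for Traj and 13.8 to 15.2 for Trbv.

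Fewer segments were detected in the same libraries. Of 108 Trav members, 103 were above 0 in all 4 spleen libraries and 50 in all 4 adipose libraries. The corresponding counts were 43 and 26 of 45 Traj members, and 22 and 16 of 23 Trbv members. WT adipose 2 was again like spleen, with 103 Trav members above 0 against 106 or 107 in spleen, whereas WT adipose 3 had 70. Reads and cells per library are not known from TPM, so a segment listed at 0 was not detected at an unknown depth.

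Whole share profiles were then compared between libraries. The Bray-Curtis distance, which is 0 for equal shares and 1 for no segment in common, was 0.195 to 0.235 between spleen libraries for Trav, 0.376 to 0.608 between adipose libraries and 0.265 to 0.564 across the tissues. For Trbv it was 0.0959 to 0.151 between spleen libraries, 0.184 to 0.439 between adipose libraries and 0.165 to 0.39 across. Spleen libraries of different genotype were thus close to each other, and 2 adipose libraries were usually farther apart (median 0.527 for Trav) than an adipose and a spleen library (median 0.392). Distances across tissues minus those within were 0.0385 for Trav, 0.0411 for Traj and 0.0205 for Trbv, with exact one-sided permutation p-values of 0.0286, 0.0857 and 0.0286. After adjustment over the 9 tests of this kind none passed (0.129, 0.257 and 0.129). The smallest p possible is 0.0286, and over 9 tests 3 tests at that p would not pass either. No conclusion is drawn from the adjusted outcome. Summed by subfamily the tissue value was 0.00398 for Trav (exact permutation p = 0.343) and 0.0163 for Trbv (0.0857). Each sign also turned when single spleen libraries were left out: the value was -0.0186 for Trav without WT spleen 3, -0.0116 for Traj without KO spleen 3 and -0.0222 for Trbv without KO spleen 2. Without single adipose libraries it stayed positive, at 0.05305 to 0.112 for Trav, 0.05674 to 0.1329 for Traj and 0.03496 to 0.07425 for Trbv. Distances within tissues pool the larger adipose and the smaller spleen ones, so the value shifts with how many of each remain.

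By genotype the same measure was -0.0159 for Trav, 0.00088 for Traj and -0.0188 for Trbv, with exact permutation p-values of 0.8, 0.371 and 0.971. By library number it was 0.00287, -0.0123 and 0.014, with exact permutation p-values of 0.486, 0.714 and 0.114. Summed by subfamily the Trav value by number was 0.0228 (exact permutation p = 0.0286, adjusted 0.257). Pairs with the same genotype and number from the other tissue had a median Trav distance of 0.399, against 0.387 for the 2 libraries of a group. Members also varied more between the libraries of a group than other genes did. In WT adipose the log2 difference from one library to the other had an SD of 2.34 over members against 1.03 over the other tested genes, and in KO adipose 2.59 against 1.46. In spleen it was 1.05 against 0.684 in WT and 1.26 against 0.83 in KO.

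Gene by gene, most segments were lower in adipose tissue without passing the test. In WT, 165 of 202 members had a negative log2 fold change between adipose tissue and spleen, with a median of -1.01 over members and 0.32 over all 13376 genes tested. In KO, 162 of 202 were negative, with a median of -1.01 over members and 0.16 over all genes. Quantile normalization moved the medians over all genes to -0.0033 and -0.111 and those over members to -1.36 and -1.29. Scaling to the CD3 genes moved them to 0.534 and 0.859 over all genes and to -0.754 and -0.402 over members, with 158 and 121 members negative. The direction of the member median thus held and it moved toward 0, while the median over all genes rose as well. Members did not come closer to the other genes in KO by this scaling. Since a member may have entered through spleen values alone, these counts describe the members and are no support for a difference.

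No member passed in the comparison of tissues within WT (0 of 202 by limma, with 0.164% of all tested genes called), where 49 members, or 24.3%, had an unadjusted p under 0.05 against 13% of all genes. In KO 2 of 202 members passed, both lower in adipose tissue (0.99%, against 1.08% of all tested genes), and 45 members, or 22.3%, had an unadjusted p under 0.05 against 12.9%. For 27 of 202 members (13.4%) all 4 adipose libraries were below all 4 spleen libraries, which held for 4.66% of all tested genes. They were 12 Trav, 6 Trbv, 5 Traj and 3 Trbj segments and Trbc2. Trav4d-3 and Trav4n-3, which have the same sequence, are both among them and are not separate observations. The reverse held for 1 member, Trgj1 (0.495%, against 11.6% of all tested genes). The effect of genotype did not differ detectably between the tissues: 0 of 202 members passed the limma interaction test (0.0299% of all tested genes), and 17, or 8.42%, had an unadjusted p under 0.05 against 3.06%.

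Both segments that passed in KO were alpha J segments, and each was lower in both KO adipose libraries than in both KO spleen libraries. Traj13 was 8.16 and 20.5 TPM in WT adipose, listed at 0 in both KO adipose libraries, 13.2 and 21.2 TPM in WT spleen and 14.8 and 27.0 TPM in KO spleen. Its log2 fold change between adipose tissue and spleen in KO was -4.40 on the log2(TPM + 1) scale (SE 0.60, limma adjusted p = 0.0212). Traj39 was 21.5 and 23.4 TPM in WT adipose, 1.91 TPM and listed at 0 in KO adipose, 33.7 and 39.5 TPM in WT spleen and 16.6 and 64.8 TPM in KO spleen. Its log2 fold change in the same comparison was -4.32 (SE 0.72, limma adjusted p = 0.0385). The Traj13 call was lost without any single spleen library (limma adjusted p from 0.0632 without WT spleen 2 to 0.164 without KO spleen 2), and the Traj39 call was lost without any single library except KO adipose 2 (0.0523 to 0.14). Both calls were also lost with values scaled to the CD3 genes (limma adjusted p = 0.0852 for Traj13 and 0.0919 for Traj39), with a pseudocount of 5 (0.0778 and 0.0827) and with no filter on low values (0.0733 and 0.141), and without both number 2 libraries of KO mice Traj13 had 0.0598 and Traj39 0.0141. With the library number as a block, 4 members passed in KO, Trav2 and Traj47 being the additional ones, against 1.76% of all tested genes, a share close to that of the members. Leaving out KO adipose 2 left KO adipose 3, the library with the high macrophage sum, as the lone library of its group. Leaving out both number 2 libraries of KO mice left a lone library in each KO group. More members passed between the tissues in these fits, in KO and in WT, and nothing is concluded from the calls in them.

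In adipose tissue, KO against WT, 1 of 202 members passed (0.495%, against 0.284% of all tested genes), and 26, or 12.9%, had an unadjusted p under 0.05 against 6.97%. That member was Traj57. It was 1.34 TPM and listed at 0 in WT adipose, 50.9 and 77.3 TPM in KO adipose, 33.7 and 9.59 TPM in WT spleen and 14.5 and 46.0 TPM in KO spleen. The KO adipose libraries were the 2 highest of all and the WT adipose libraries the 2 lowest. The log2 fold change from WT to KO in adipose tissue was 5.38 (SE 0.77, limma adjusted p = 0.037). The call was lost with the library number as a block (limma adjusted p = 0.0723) and without any single library other than KO adipose 2 (0.0594 to 0.176). With the sex of the mice as a covariate the limma adjusted p was 0.0311 and the log2 fold change again 5.38. Each adipose group held 1 library with Ddx3y RNA and 1 without, so the covariate could not change this fold change, and the part of sex was not tested by it. Leaving out both number 2 libraries of KO mice, in which Foxp3 was low, left KO adipose 3 alone in its group, with a log2 fold change of 5.677. The call was also lost with a pseudocount of 0.1 (limma adjusted p = 0.121) or 5 (0.0888), with no filter (0.134) and with only the adipose groups in the fit (0.266). More members passed in this comparison without KO adipose 2 or without both number 2 libraries of KO mice. In both fits KO adipose 3, the library with the high macrophage sum, was the lone library of its group, so nothing is concluded from these counts.

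Other J segments separated the genotypes in adipose tissue without passing, of which Traj13, Traj39, Traj5 and Traj21 are described. Traj13, at 0 in KO adipose and at 8.16 and 20.5 TPM in WT adipose, had a log2 fold change from WT to KO of -3.81 (SE 0.60, limma adjusted p = 0.0601), which passed with the library number as a block (0.032) and with sex as a covariate (0.0258). Traj5 was listed at 0 in both WT adipose libraries and was 25.2 and 27.0 TPM in KO adipose, 55.6 and 8.52 TPM in WT spleen and 8.18 and 20.0 TPM in KO spleen (limma adjusted p = 0.0847 for KO against WT in adipose tissue). Traj21 was 20.8 and 129.5 TPM in WT adipose, 0.703 and 2.67 TPM in KO adipose, 83.8 and 38.4 TPM in WT spleen and 21.4 and 64.4 TPM in KO spleen (limma adjusted p = 0.155), and it passed with sex as a covariate. Traj39, whose values are given with the tissues, had a log2 fold change from WT to KO in adipose tissue of -3.78 (SE 0.72, limma adjusted p = 0.114). The genotypes did not overlap within adipose tissue for these 4 segments, and they overlapped in spleen. Such separation of 2 libraries from 2 was common: both KO adipose libraries were above both WT ones for 26 of 202 members (12.9%, against 7.66% of all tested genes) and below them for 19 (9.41%, against 27.5%). In spleen the counts were 24 (11.9%, against 5.93%) and 29 (14.4%, against 13.9%).

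In spleen no member passed between the genotypes (0 of 202 by limma, with 0% of all tested genes called), and 5 members, or 2.48%, had an unadjusted p under 0.05 against 0.478%. No member had all 4 KO libraries above all 4 WT libraries, which held for 0.224% of all tested genes, and none had them all below, which held for 1%. The median log2 fold change from WT to KO over members was -0.07 in adipose tissue and -0.05 in spleen, against -0.27 and -0.12 over all genes. Under quantile normalization the member medians were 0.0709 and 0.0652 and under CD3 scaling 0.269 and -0.191, so no direction of the members by genotype held under every scaling.

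**Figure D3:**
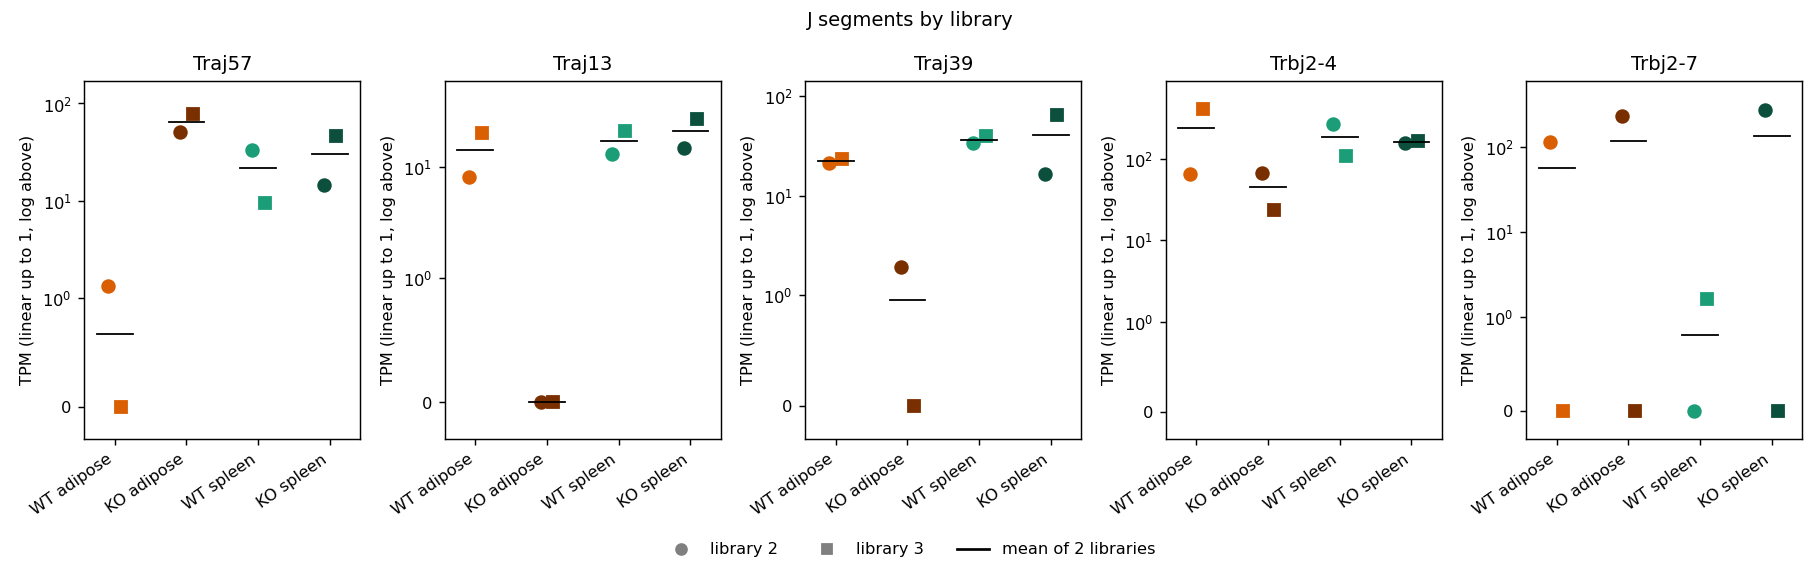
TPM of 5 J segments in each group (linear up to 1 TPM and logarithmic above), with a point for each library (circle, library 2; square, library 3) and a bar at the mean of the 2 libraries. Traj57 was higher in KO than in WT adipose libraries, Traj13 and Traj39 were lower, Trbj2-4 was highest in WT adipose 3, and Trbj2-7 was above 113 TPM in 3 libraries of 3 groups and at or near 0 in the other 5.

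The alpha J segment with the largest share was Traj23. It held 4.91% and 27.5% of Traj TPM in WT adipose, 11.2% and 12.3% in KO adipose, 6.31% and 3.68% in WT spleen and 4.12% and 3.77% in KO spleen. Of the 4 adipose libraries 3 were above every spleen library, and WT adipose 2 was within the spleen range. In TPM its values overlapped between the tissues, with a log2 fold change between adipose tissue and spleen of 0.29 in WT (SE 1.03, limma adjusted p = 0.92) and 1.09 in KO (SE 1.03, limma adjusted p = 0.71). In spleen no Traj segment took more than 6.90%, the share of Traj31 in KO spleen 2, and the leading segments there were Traj23, Traj27, Traj31, Traj40 and Traj12.

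Adipose libraries differed in which other Traj segments were high. In WT adipose 3, Traj21 held 10.1% and Traj33 8.59% of Traj TPM, and in WT adipose 2 Traj16 held 6.31%. In KO adipose 3, Traj57 held 10.9%, Traj45 7.66% and Traj43 5.65%, and Traj15 was listed at 0 there, while it held 1.01 to 4.53% in the other adipose libraries and 2.48 to 4.86% in spleen. In KO adipose 2, Traj57 held 5.54% and Traj50 5.47%. Traj22 had a lower share in both KO adipose libraries (0.218% and 0.358%) than in WT adipose (1.89% and 3.22%), and also in KO spleen (1.53% and 1.88%) than in WT spleen (3.37% and 3.31%). Traj57 was the Traj segment raised in more than 1 adipose library by the measure used here, a share of at least 5% and at least 3 times the median of the other libraries, which was chosen after the values were seen. By that measure the 176 Trav, Traj and Trbv members gave 2 such segments in WT adipose 2, 8 in WT adipose 3, 3 in KO adipose 2, 8 in KO adipose 3 and 0 in each of the 4 spleen libraries.

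**Figure D4:**
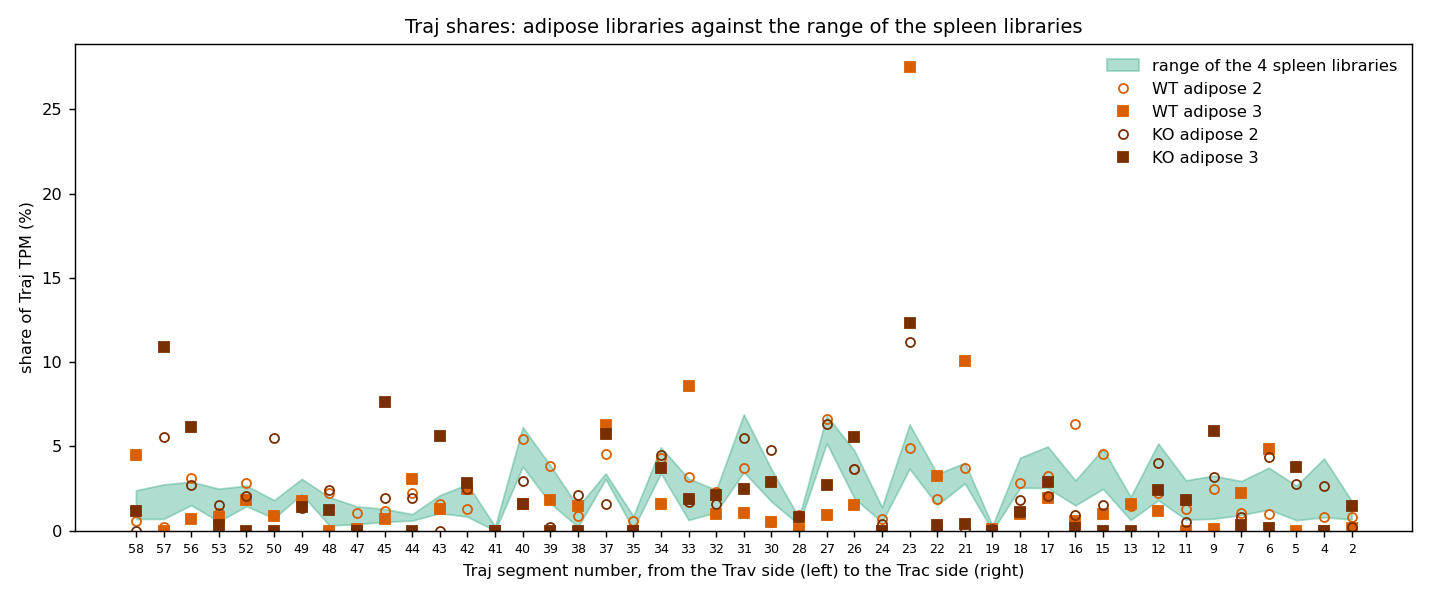
Share of Traj TPM (percent, linear axis) of the 45 Traj members in the order of their numbers; the band spans the 4 spleen libraries and the symbols are the 4 adipose libraries (orange, WT; brown, KO; open circles, library 2; filled squares, library 3). Most symbols lie in or near the band, and Traj23 in WT adipose 3, at 27.5%, lies farthest above it.

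Among the alpha V segments, Trav13-1 had the largest difference in mean share between the tissues. It held 2.08% and 9.21% of Trav TPM in WT adipose, 1.41% and 8.50% in KO adipose, 2.12% and 0.945% in WT spleen and 1.69% and 0.985% in KO spleen. Both number 3 libraries of adipose tissue were high, and both number 2 libraries were within the spleen range. The log2 fold change of its TPM between adipose tissue and spleen was 1.30 in WT (SE 0.73, limma adjusted p = 0.482) and 0.94 in KO (SE 0.73, limma adjusted p = 0.65). Trav13-1 has a related copy, Trav13d-1, with 12 mismatches over the aligned part.

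Other Trav segments were high in particular adipose libraries. In WT adipose 3, Trav10 held 10.1%, Trav4-3 8.99% and Trav9-1 8.62%, against at most 2.46% for any of these 3 in the other 7 libraries. Trav6-2 held 5.85% there and at most 0.943% elsewhere, and Trav14d-3-dv8 held 4.42% in WT adipose 2 and 0.0442 to 2.96% elsewhere. KO adipose 3 had 7.25% for Trav3-3 and 4.84% for Trav17, and KO adipose 2 had 5.81% for Trav14-1 and 5.21% for Trav12-2. Trav7d-2 had the largest share in 3 of the 4 spleen libraries, and Trav7-4 in WT spleen 2 (4.45%) and WT adipose 2 (5.57%). Trav7d-2 held 3.16% and 1.95% in WT adipose, 4.52% and 0.366% in KO adipose, 3.74% and 5.46% in WT spleen and 7.53% and 4.20% in KO spleen, and the tissues overlapped. Trav12n-3 was listed at 0 in both number 3 libraries of adipose tissue, held 1.84% and 3.75% in the number 2 ones, and 1.93 to 4.29% in spleen.

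The duplicated part of the Trav locus took a different share in 1 library. Segments whose names carry the copy letter n held 19.4% and 7.10% of Trav TPM in WT adipose, 22.8% and 18.3% in KO adipose, 25.1% and 25.2% in WT spleen and 20.6% and 22.4% in KO spleen. Segments without a copy letter held 79.4% in WT adipose 3 and 45.5 to 57.4% in the other 7 libraries.

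The beta V segments, the family with fewest members of the 3, had the smallest distances between libraries. In each spleen library the 2 largest Trbv shares belonged to Trbv13-2, Trbv5 or Trbv3, and in 3 of the 4 adipose libraries Trbv1 was among the 2 largest. Trbv1 held 10.4% and 6.87% of Trbv TPM in WT adipose, 12.8% and 22.3% in KO adipose, 6.45% and 8.11% in WT spleen and 4.93% and 7.17% in KO spleen. Both KO adipose libraries had a larger share than each of the other 6 libraries. In TPM the log2 fold change from WT to KO in adipose tissue was 0.96 (SE 0.39, limma adjusted p = 0.651) and did not pass.

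Trbv13-2 and Trbv13-3 had their highest shares in the same library. Trbv13-2 held 6.48% and 18.7% in WT adipose, 12.6% and 10.8% in KO adipose, 11.5% and 14.3% in WT spleen and 10.6% and 10.7% in KO spleen. Trbv13-3 held 4.44% and 17.8% in WT adipose, 8.50% and 0.672% in KO adipose, 7.55% and 7.89% in WT spleen and 7.31% and 6.35% in KO spleen. Both peaked in WT adipose 3, and in KO adipose 3 Trbv13-3 was under 1% while Trbv13-2 was not. Trbv13-1 held 9.77% in WT adipose 3 and 9.91% in KO adipose 3, above the 4.35 to 8.15% of spleen, and both number 2 libraries of adipose tissue were within the spleen range. Trbv12-2 held 13.2% in KO adipose 3 and 2.78 to 5.34% in the others, Trbv14 held 7.09% in WT adipose 2 and 0.129 to 2.65% in the others, and Trbv31 held 11.8% in WT adipose 3 and 3.55 to 8.28% in the others.

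Trbv16, Trbv5 and Trbv15 had lower mean shares in adipose tissue. Trbv16 held 5.52% and 3.02% in WT adipose, 3.19% and 1.43% in KO adipose, 5.99% and 6.05% in WT spleen and 8.88% and 5.98% in KO spleen, without overlap between the tissues. Trbv5 held 10.5% and 6.60% in WT adipose, 10.7% and 4.20% in KO adipose and at least 8.80% in every spleen library, and both number 2 libraries of adipose tissue were within the spleen range. Trbv15 held 0.734 to 3.26% in adipose tissue and 3.19 to 4.48% in spleen, and the tissues overlapped. The log2 fold change of Trbv16 in TPM between adipose tissue and spleen was -1.31 in WT (SE 0.81, limma adjusted p = 0.52) and -2.55 in KO (SE 0.81, limma adjusted p = 0.24). All 23 Trbv members had a negative log2 fold change between adipose tissue and spleen in WT and 21 of 23 in KO. With values scaled to the CD3 genes the counts were 22 and 15.

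**Figure D5:**
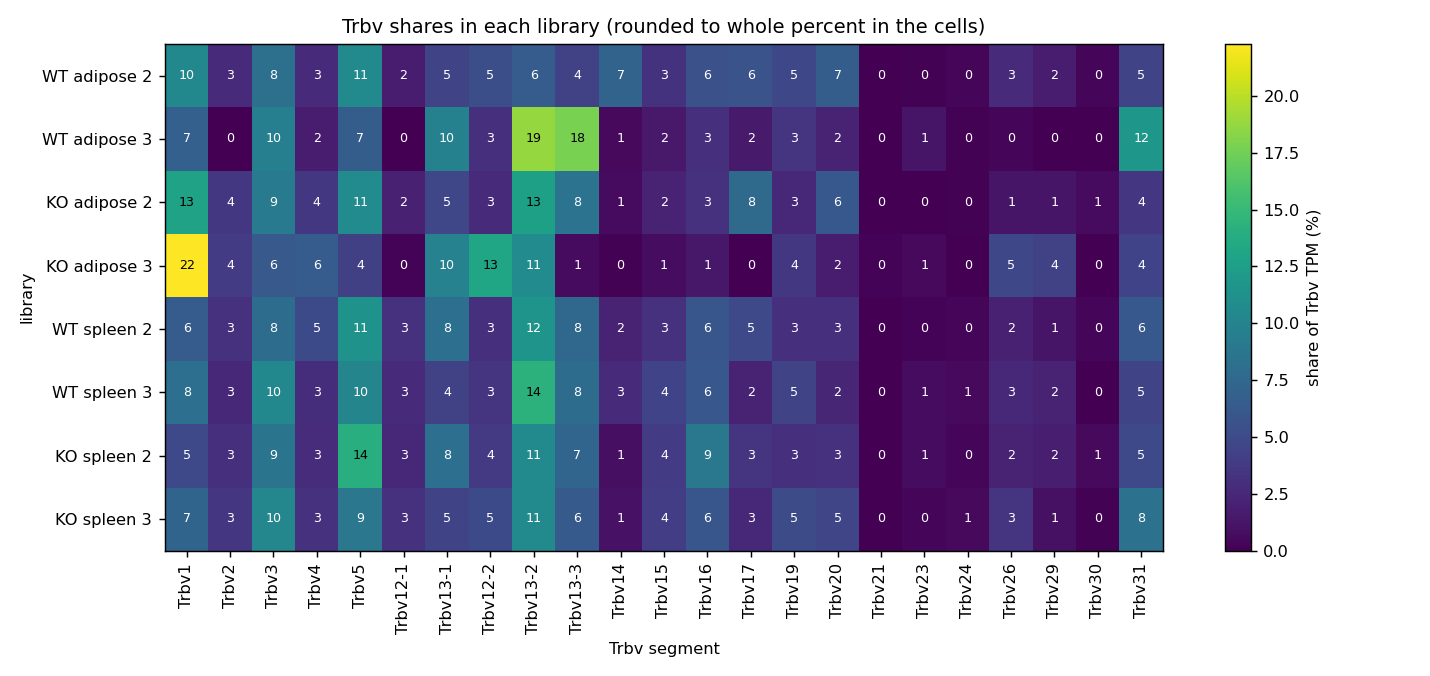
Share of Trbv TPM (percent, colour scale and rounded values in the cells) of the 23 Trbv members in each of the 8 libraries. The spleen libraries were within a distance of 0.0959 to 0.151 of each other, and the adipose rows stand out at Trbv1 (22.3% in KO adipose 3), Trbv13-2 and Trbv13-3 (18.7% and 17.8% in WT adipose 3) and Trbv12-2 (13.2% in KO adipose 3).

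The beta J segments repeated the skew of WT adipose 3. Trbj2-4 held 9.61% and 55.3% of Trbj TPM in WT adipose, 6.21% and 4.63% in KO adipose, 12.7% and 10.5% in WT spleen and 11.1% and 12.9% in KO spleen. In WT adipose 3 it therefore exceeded the 11 other Trbj members together. In TPM it was 65.6 and 409.3 in WT adipose, 67.0 and 23.3 in KO adipose, 265.4 and 109.4 in WT spleen and 157.4 and 166.6 in KO spleen, and no contrast passed for it. The effective number of Trbj segments was 2.90 in WT adipose 3 and 6.35 to 8.29 in the other 7 libraries.

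Trbj2-7 followed neither tissue nor genotype. It was 113.3 TPM and listed at 0 in WT adipose, 234.4 TPM and listed at 0 in KO adipose, listed at 0 and 1.61 TPM in WT spleen, and 272.7 TPM and listed at 0 in KO spleen. The 3 high libraries, where it held 16.6 to 21.7% of Trbj TPM, were the 3 with Ddx3y RNA. In the same 3 libraries the ratio of summed Traj TPM to Trac was 0.236 to 0.272, against 0.609 to 0.821 in the other 5. For 3 of 202 members (1.49%) all libraries with Ddx3y RNA were above all others, against 1.53% of all tested genes, and for another 3 (1.49%) all were below, against 4.55%. Trbj2-7 was singled out after its values were seen, and the part of sex, or of anything else these libraries share, was not tested.

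The iNKT alpha segments Trav11 and Traj18 had lower TPM in every adipose library than in every spleen library, without passing the test. This order held for 12 of 108 Trav and 5 of 45 Traj members, for 13.4% of all members and for 4.66% of all tested genes. The beta segments of iNKT cells did not separate the tissues. Trav11, the V segment of the iNKT alpha chain, was listed at 0 in both WT adipose libraries and in KO adipose 3, and was 10.6 TPM in KO adipose 2, 19.5 and 25.1 TPM in WT spleen and 30.0 and 37.3 TPM in KO spleen. Traj18, its J partner, was 16.0 and 12.9 TPM in WT adipose, 17.0 and 8.07 TPM in KO adipose, 52.9 and 45.8 TPM in WT spleen and 31.8 and 72.6 TPM in KO spleen. The log2 fold change between adipose tissue and spleen in WT was -4.53 for Trav11 (limma adjusted p = 0.148) and -1.70 for Traj18 (limma adjusted p = 0.264), and in KO -3.34 (0.212) and -1.94 (0.155). Beside them, the median log2 fold change of all Trav members was -0.98 in WT and -1.02 in KO, and that of all Traj members -1.35 and -1.17. As a share of Traj TPM the tissues overlapped for Traj18, with 2.86% in WT adipose 2 and 2.55% in WT spleen 2. The beta segments that iNKT cells use are Trbv1, Trbv13-2 and Trbv29. Their mean shares of Trbv TPM were 13.1%, 12.2% and 1.83% in adipose tissue and 6.66%, 11.8% and 1.57% in spleen. For each of them the tissues overlapped, in share and in TPM. Zbtb16, the transcription factor that defines iNKT cells, was at most 1.82 TPM in any library. Ordinary alpha-beta T cells also use these segments, and TPM does not show which V and J were joined. Trav11 and its copy Trav11d were 99.7% identical, with 0 mismatches, and Trav11n was at most 5.67 TPM in any library. How reads were divided among such copies is not known, so Trav11 listed at 0 need not mean that the segment was absent.

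For MAIT cells, Trav1 was 12.2 TPM and listed at 0 in WT adipose, listed at 0 and 10.3 TPM in KO adipose, 23.3 and 6.92 TPM in WT spleen and 14.1 and 32.9 TPM in KO spleen. Traj33, their J segment, was highest in WT adipose 3, at 110.5 TPM, a library in which Trav1 was listed at 0. The other 7 libraries had 13.2 to 42.4 TPM of Traj33. The beta segments of MAIT cells are Trbv19, Trbv13-2 and Trbv13-3. Trbv19 held 2.52 to 4.81% of Trbv TPM in adipose tissue and 3.105 to 5.14% in spleen. In TPM it was lower in every adipose library than in every spleen library, as 6 of 23 Trbv members and 4.66% of all tested genes were.

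At the gamma and delta loci, delta constant RNA was at most 3.38 TPM in any library, and the gamma constant gene Tcrg-C1 was above every spleen library in every adipose library without passing the test. Trdc, the delta constant gene, was 1.68 and 0.583 TPM in WT adipose, listed at 0 and 3.38 TPM in KO adipose, 1.08 and 2.11 TPM in WT spleen and 0.814 and 1.44 TPM in KO spleen. The delta members together (Trdc, Trdj1, Trdv1, Trdv2-1, Trdv2-2, Trdv4 and Trdv5) were 16.4 to 40.0 TPM in adipose tissue and 18.7 to 36.7 TPM in spleen. The delta locus therefore showed no separation of the tissues.

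The table names most gamma genes Tcrg, which the naming rule of the members did not cover, and 10 such rows were read beside the 4 gamma members. Tcrg-C1, a gamma constant gene, was 197.2 and 707.5 TPM in WT adipose, 86.4 and 136.7 TPM in KO adipose, 23.7 and 17.7 TPM in WT spleen and 23.2 and 14.5 TPM in KO spleen. All adipose libraries were above all spleen libraries for Tcrg-C1, which held for 11.6% of all tested genes. Its log2 fold change between adipose tissue and spleen was 4.12 in WT (SE 0.59, limma adjusted p = 0.0506) and 2.50 in KO (SE 0.59, limma adjusted p = 0.115). The WT value passed with the library number as a block (limma adjusted p = 0.049), with sex as a covariate (0.0161) and without WT adipose 2 (0.0175), KO adipose 2 (0.0191) or KO adipose 3 (0.0207). Leaving out the other libraries gave adjusted values of 0.0735 to 0.393. For the other 9 Tcrg rows the tissues overlapped. Tcrg-C2 was 61.2 and 304.4 TPM in WT adipose, 122.6 and 2.83 TPM in KO adipose and 3.05 to 12.5 TPM in spleen, so KO adipose 3 was below every spleen library. Tcrg-C4 was 7.17 TPM and listed at 0 in WT adipose, 57.7 and 4.02 TPM in KO adipose and 4.06 to 16.0 TPM in spleen. Tcrg-C3 and Tcrg-V1 were at most 3.19 TPM, Tcrg-V7 was listed at 0 in every library, and Tcrg-V3, Tcrg-V4, Tcrg-V5 and Tcrg-V6 were above 5 TPM only in 1 or 2 adipose libraries each. Of the 9 rows tested, 7 had a positive log2 fold change between adipose tissue and spleen in WT and 5 in KO. In either genotype 0 passed the limma test, against 0.164% of all tested genes in WT and 1.08% in KO. An unadjusted p under 0.05 was found for 2 in WT and 1 in KO, against 13% and 12.9% of all tested genes.

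Among the gamma members, Trgj1 was 16.9 and 107.5 TPM in WT adipose, 8.01 and 17.8 TPM in KO adipose, 2.21 and 5.03 TPM in WT spleen and 1.13 and 0.986 TPM in KO spleen (log2 fold change between adipose tissue and spleen in WT 3.32, SE 0.86, limma adjusted p = 0.202). Trgv2 was 36.5 and 263.0 TPM in WT adipose, 113.4 and 2.63 TPM in KO adipose, listed at 0 and 9.995 TPM in WT spleen and 2.82 and 6.03 TPM in KO spleen. Trgj2 was 4.93 and 225.4 TPM in WT adipose, 44.7 and 2.54 TPM in KO adipose and at most 12.8 TPM in spleen, and Trgj4 was at most 2.90 TPM anywhere. WT adipose 3 had the highest value for Trgj1, Trgj2, Trgv2 and Tcrg-C1, and it was also the library with the most skewed alpha and beta segments. Sox13, a transcription factor of gamma-delta T cells, was listed at 0 in 7 libraries and was 3.58 TPM in KO adipose 3. The summed level of the 10 markers of gamma-delta, NKT, NK and CD8 cells was 22.2 to 94.3 TPM in adipose tissue and 49.3 to 88.3 TPM in spleen. Cd8b1, a CD8 chain, gave much of this sum, at 5.10 to 81.2 TPM in adipose tissue and 24.5 to 54.0 TPM in spleen. Il23r, the receptor for interleukin 23 found on some gamma-delta T cells, was 18.2 and 10.2 TPM in WT adipose, 5.94 and 8.23 TPM in KO adipose and 0.0711 to 3.58 TPM in spleen. Its adipose libraries were thus all above the spleen libraries, which held for 11.6% of all tested genes. Its log2 fold change between adipose tissue and spleen was 2.73 in WT (limma adjusted p = 0.233) and 2.25 in KO (0.262). Cd160 and Eomes, also on the list, went the other way. Cd160 was 0 to 5.78 TPM in adipose tissue and 15.2 to 35.6 TPM in spleen, and Eomes 0 to 0.204 TPM and 1.51 to 4.35 TPM. Of the 7 listed markers tested, 6 had a negative log2 fold change between adipose tissue and spleen in WT and 4 in KO. In WT 0 passed the limma test (0.164% of all tested genes) and in KO 1, lower in adipose tissue (1.08%).

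None of the 12 listed genes of the receptor pathway passed between the genotypes. These were genes of the receptor complex, co-receptor and proximal signalling (Cd3d, Cd3e, Cd3g, Cd247, Cd4, Cd28, Cd5, Cd6, Lck, Zap70, Lat and Themis). In KO against WT adipose tissue 0 passed the limma test, against 0.284% of all tested genes. An unadjusted p under 0.05 was found for 1, against 6.97% of all tested genes. All 12 had a negative log2 fold change there, with a median of -0.74 against -0.27 over all genes. Quantile normalization also gave 12 negative, and CD3 scaling 10 with a median of -0.362. Cd3d, Cd3e, Cd3g and Cd247 are among the 12 and also set that scale, so the count and median under CD3 scaling are partly fixed by it. In spleen 6 were higher and 6 lower in KO, 0 passed (0% of all tested genes), and 0 had an unadjusted p under 0.05 (0.478%). The recombination genes Rag1 and Rag2, together with Dntt and Ptcra, summed to at most 2.06 TPM in every library.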

How the data were processed

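Expression was deposited as 1 table of 8 libraries. Its values are TPM, a unit read from the columns, each of which sums to 1000000, and the deposited TPM were made by the authors from reads placed on the mm9 build, which the submitters' processing notes name. Aligner, counting tool and annotation are not stated, nor is how reads were shared between near-identical segments. TPM keeps no depth, so no counting interval is given.

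Shares are the percent of a family's member TPM in a library. The adaptor gene Tradd matches the start of the naming pattern but is no segment and was left out, and 201 of 202 members matched a GENCODE M21 (GRCm38) symbol for sequence and length. No coordinates are given, because this build is not that of the table. Contrasts were fitted with limma 3.58.1 (R 4.3.3, variance trend) on log2(TPM + 1), which understates folds of low genes, over the 13376 genes that reached 1 TPM in 2 or more libraries. The 4 groups were fitted together over all 8 libraries, leaving 4 residual degrees of freedom, which assumes 1 spread per gene in all groups, and SE is the moderated standard error. Within each of 5 contrasts the Benjamini-Hochberg adjusted p had to be under 0.05. Effective numbers and distances were computed in Python 3.11.15 with exact permutation tests over libraries. The limma fit and the permutation test were tested on simulated data.

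Members, lists and tests were chosen with earlier results of these data known. Named by rule were the constant genes, the 2 largest shares per library and family, the 5 largest differences of mean share between tissues and between genotypes, members that passed limma, the iNKT and MAIT segments and all gamma and delta members. Trbj segments and Traj5, Traj43, Traj50, Trav2 and Traj47 were named after their values were seen.

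Libraries of the same number deviated together: the correlation over all tested genes of the number 3 minus number 2 difference was 0.128 to 0.382 over the 6 pairs of groups, and -0.0698 to 0.33 over members. The numbers were taken as a possible pairing from this check and the column headers. WT adipose 2 and WT spleen 2 differed in sex-linked RNA, so they did not come from 1 mouse. Alternatives were other pseudocounts, filters, scalings, indices and distances, the replicate block, subsets of libraries and, added after the data were seen, sex as a covariate or stratum and omission of both KO libraries of number 2.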

Additional observations from a re-analysis of the deposited data

How the results depend on the processing

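Tests of single segments depended on the setting, and the cause was not tested. Each number of members passing is followed by the percent of all genes tested in the same fit that passed. In KO against WT adipose tissue (1, 0.284%) it was 2 with a pseudocount of 0.1 (0.0972%), with quantile normalization (0.538%) or without the variance trend (0.426%), and 0 with a pseudocount of 5 (0.314%), with no filter (0.179%) or with only the groups compared (0%). For adipose tissue against spleen in WT (0, 0.164%) it was 1 with a pseudocount of 0.1 (0.187%) or a filter of 5 TPM (0.592%) and 9 with only the groups compared (1.8%). In KO (2, 1.08%) it was 0 with a pseudocount of 5 (0.665%), with CD3 scaling (0.723%) or with only the groups compared (0.382%), 1 with no filter (0.269%) and 4 with quantile normalization (1.73%). The replicate block gave 4 in KO (1.76%), where Traj13 and Traj39 stayed past the threshold. In KO against WT adipose tissue it gave 1 (0.321%), where Traj13 passed in place of Traj57. The pairing changed no call of an effective number or a distance. None could pass under it, because the smallest permutation p possible within numbers is 0.0556. With sex as a covariate, chosen after seeing the data, the counts in the same order of comparisons were 3 (0.486%), 7 (1.88%) and 9 (2.6%). Without both KO libraries of number 2, also chosen after seeing the data, they were 11 (0.989%), 5 (1.17%) and 8 (0.545%), and the interaction gave 2 (0.161%).

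With single libraries left out, the number of members passing ranged from 0 to 20 in KO against WT adipose tissue (0.106 to 2.06% of all genes), 0 to 6 between tissues in WT (0 to 1.38%), 0 to 33 between tissues in KO (0.00752 to 5.41%) and 0 to 2 for the interaction (0 to 0.602%), where the 20, the 33 and the 2 came without KO adipose 2. KO against WT in spleen gave 0 members under every alternative that was run.

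Tissue differences in the effective number stayed negative under every alternative. None passed after adjustment, which the small number of libraries did not allow. Without single libraries, KO minus WT ranged from -10.18 to 3.588 for Trav, -4.214 to 3.662 for Traj and -1.989 to 0.6271 for Trbv, the extremes coming without WT adipose 3 and without KO adipose 3. It reversed to 0.2569 for Trbv summed by subfamily and to -0.2554 for Traj without both KO libraries of number 2. Distances by tissue ranged from -0.01855 to 0.112 for Trav, -0.01156 to 0.1329 for Traj and -0.02225 to 0.07425 for Trbv. By genotype they ranged from -0.02136 to 0.01793 for Traj. By number they ranged from -0.02743 to 0.05015 for Trav, -0.04634 to 0.04044 for Traj and -0.01248 to 0.05256 for Trbv. The Trav distance by number was -0.001141 with the Hellinger distance. Without both KO libraries of number 2 the distance by number was -0.06248 for Trav and -0.03661 for Trbv, and that by genotype 0.02614 for Trbv.

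With 2 libraries per group of unknown depth, absence of a segment and lack of detection cannot be told apart. V and J shares are separate sums, so no receptor chain and no clone is shown. How reads of near-identical segments were assigned is not known. Where a library was left out, the lone library of its group was assumed to vary like the other groups.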
